A study of Mus musculus with 5 samples.

Results

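The genes described here encode the machinery that ties the cardiomyocyte's contractile apparatus to the surrounding matrix. They are Itga5, Itga7 and Itgb1 (integrin subunits), Tln1 and Tln2 (talins), Vcl (vinculin), Zyx (zyxin), Ilk (integrin-linked kinase) and Parva (alpha-parvin). They were chosen by name as genes of the costamere and focal adhesion, and all 9 were found among the 41128 genes of the deposited table. Integrins are heterodimers of an alpha and a beta subunit that bind matrix proteins outside the cell. Inside the cell talin binds the beta tail, vinculin strengthens the link from talin to actin under load, and integrin-linked kinase with parvin forms a second bridge. In heart muscle these proteins sit at costameres, the ribs that couple Z-discs to the cell membrane, and at the intercalated disc.

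All libraries came from FVB mice aged 8 weeks, 7 days after the left anterior descending coronary artery had been tied off for good. The border zone, the muscle beside the infarct, was sampled in mice 32, 34 and 40, and the remote myocardium, away from it, in mice 40 and 43. Every heart was infarcted, and no sample in the comparison came from an uninjured heart. Nuclear RNA was sequenced from nuclei sorted with an antibody to PCM-1, a centrosomal protein at the envelope of cardiomyocyte nuclei, with 500 pg of input to cDNA synthesis.

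Library depth ran from 11324539 to 25014205 reads. Scaled to equal depth, the border zone libraries would hold 15843 to 19602 genes and the remote libraries 22386 to 22670, with the fewest in border zone mice 32 and 34. The 8 cardiomyocyte markers, such as Ttn and Tnnt2, took 12% to 15.8% of the reads in every library, and none was at 0. Their changes did not all go the same way and are given with the other marker lists. Values below are normalized reads, that is reads per gene divided by the size factor of the library, given as mean ± SD. The size factors ran against depth. The deepest library, border zone mouse 32, had the smallest (0.631), and the shallowest, remote mouse 43, had the largest (1.37). This scaling thus widened the difference in total reads between libraries. The 10 most abundant genes held 60.3% of reads in border zone mouse 32 and 34.4% in remote mouse 43. Log2 changes are border zone over remote on the log2(value + 1) scale, ± SE, from limma. The p-values rest on how far libraries of 1 region differ, and they treat the pair of libraries from mouse 40 as unrelated.

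Of the 9 genes, 8 passed the filter on low values (a mean of at least 10 normalized reads), and Ilk did not. All 8 log2 changes were positive, with a median of 1.38 against -0.21 over the 14989 tested genes. By limma, adjusted p was above 0.05 for all 8 and for all tested genes (0% called), and edgeR likewise called none (16% of genes had an unadjusted p under 0.05). At an unadjusted p under 0.05 limma gave 4 of the 8 as higher and 0 as lower, where 10.2% of all tested genes were higher and 7.87% lower at that level. Itga5 and Tln1, 2 of the 8, rose in the authors' deposited table at adjusted p under 0.05 and 0 fell, where 3.46% of genes with an adjusted p were called higher and 1.98% lower. In normalized reads, every border zone library lay above both remote libraries for 6 of the 8, as in 18.9% of all tested genes. For 0 of the 8 the order was the opposite, as in 20.3%. Where the mean reached 100 or more, the first order held for 30.4% of genes, and the authors' deposited table called 453 of 7077 higher. Of these abundant genes, limma gave 1369 of 7083 as higher and 515 as lower at an unadjusted p under 0.05. All 8 belong to the most abundant quintile of tested genes. There 48.6% of genes had every border zone library above both remote ones, and the median log2 change was 0.69. Taken as shares of all reads, only Itga5 and Tln1 of the 8 had every border zone library above both remote ones. Itga7, Tln2, Vcl, Zyx and Parva overlapped on that scale, and Itgb1 lay below remote in every border zone library.

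**Figure D1:**
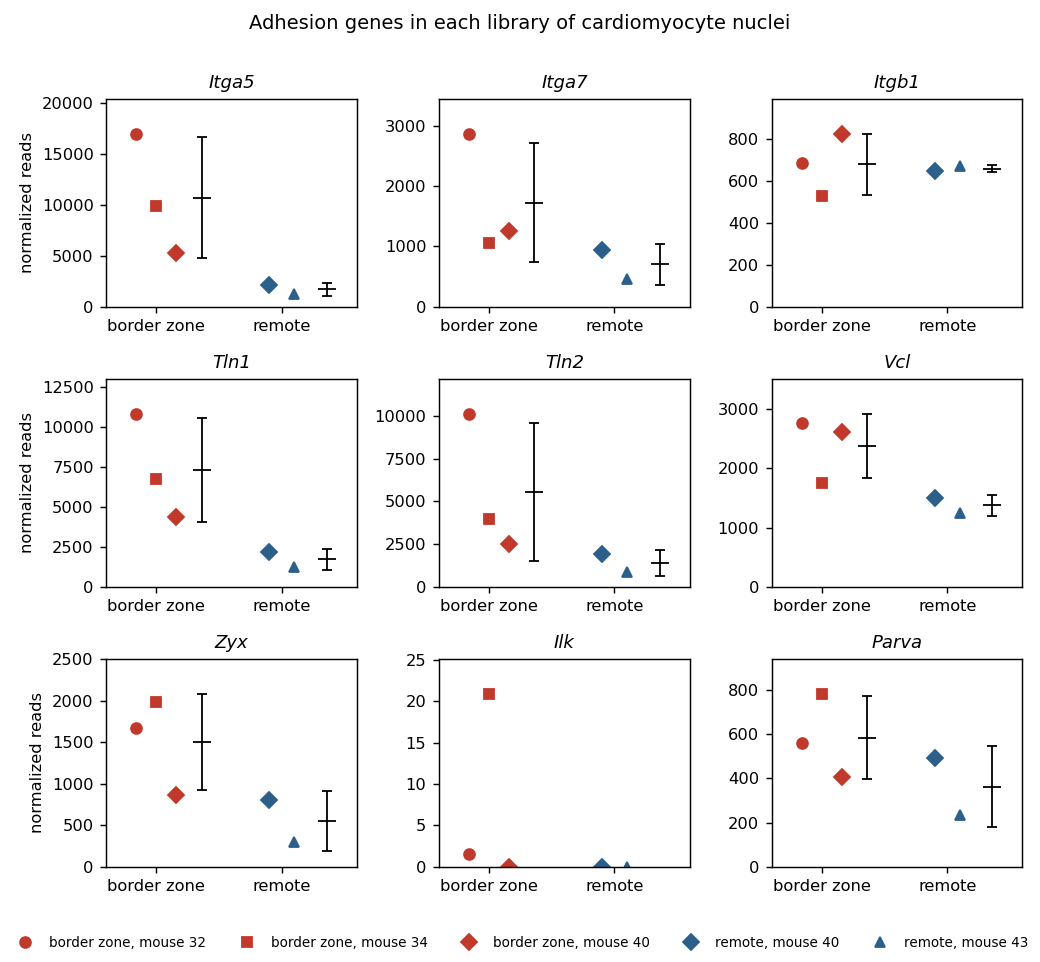
Normalized reads (linear axis from 0) of each adhesion gene in the 3 border zone libraries (red) and 2 remote libraries (blue), with symbols by mouse and black bars for mean ± SD (none for Ilk, which had 0 reads in 3 libraries). The groups are apart for Itga5, Itga7, Tln1, Tln2, Vcl and Zyx, and overlap for Itgb1 and Parva.

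Itga5 encodes the alpha5 subunit, which pairs with beta1 to form the main fibronectin receptor (ENSMUSG00000000555, mm10 chr15:103344286-103366763, minus strand). It had 16971, 9859 and 5293 normalized reads in the border zone of mice 32, 34 and 40, and 2129 and 1273 in remote mice 40 and 43. Every border zone library stood above both remote ones, and mice 32 and 34 stood above mouse 40. The means were 10707 ± 5885 (SD, n = 3) and 1701 ± 605 (SD, n = 2), a 6.30-fold difference. The log2 change was 2.54 ± 0.55, with a limma adjusted p of 0.133, and the authors' deposited table gave 2.65 with an adjusted p of 0.0083. In mouse 40, the animal that gave both regions, Itga5 was 2.49-fold higher in the border zone. As a share of all reads it stood at 361 to 428 RPM in the border zone and 154 to 210 RPM in remote muscle (reads per 1000000 reads of the library), so the groups were apart on that scale too.

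Itga7 encodes the alpha7 subunit, the laminin receptor chain of mature muscle (ENSMUSG00000025348, chr10:128933818-128958282, plus strand). Its values were 2867, 1056 and 1256 normalized reads in the border zone of mice 32, 34 and 40, and 947 and 465 in remote mice 40 and 43. The lowest border zone library lay just above the highest remote one, and mouse 32 stood apart from the other border zone mice. The means were 1726 ± 993 (SD, n = 3) and 706 ± 341 (SD, n = 2). The log2 change of 1.23 ± 0.57 did not pass (limma adjusted p = 0.278), and it was -0.20 with total-count scaling. As a share of reads the groups overlapped (border zone 40.8 to 85.7 RPM, remote 56.2 to 93.4 RPM).

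Itgb1 encodes beta1, the partner of both alpha chains (ENSMUSG00000025809, chr8:128685654-128733200, plus strand). It had 688, 530.3 and 822 normalized reads in the border zone of mice 32, 34 and 40, and 647 and 671 in remote mice 40 and 43. The remote values fell inside the range of the border zone values. The log2 change was 0.02 ± 0.49 (limma adjusted p = 0.983), and the authors' deposited table gave 0.05. As a share of reads Itgb1 stood at 17.4 to 56.1 RPM in the border zone and 63.8 to 81.1 RPM in remote muscle, below it in every border zone library.

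Ratios taken within a library do not depend on how libraries were scaled. Itga5 exceeded Itga7 by 5.92, 9.33 and 4.21 times in border zone mice 32, 34 and 40, and by 2.25 and 2.73 times in remote mice 40 and 43. The groups did not overlap, and the log2 ratio was higher by 1.31 in the border zone (exact permutation test, two-sided, p = 0.2, the smallest that 3 libraries against 2 allow, and 0.4 when adjusted over the 2 ratios tested). In mouse 40 alone this difference was 0.91. The ratio of Itga5 to Itgb1, computed without a test, was 24.6, 18.6 and 6.43 in border zone mice 32, 34 and 40 against 3.29 and 1.90 in remote mice 40 and 43. The alpha chain of the fibronectin receptor stood higher relative to its beta partner in every border zone library. These genes differ in GC content (57.3% for Itga5 and 44.8% for Itgb1), and with GC and abundance trends removed the difference in log2 ratio was 0.87, against 2.52 before. For Itga5 to Itga7, which have like GC contents, it was then 0.89.

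Tln1 encodes talin-1, the widely expressed talin (ENSMUSG00000028465, chr4:43531519-43562691, minus strand). It had 10850.2, 6742 and 4371 normalized reads in the border zone of mice 32, 34 and 40, and 2181 and 1261 in remote mice 40 and 43. Both remote values lay below the lowest border zone value, that of mouse 40. The means were 7321 ± 3278 (SD, n = 3) and 1721 ± 651 (SD, n = 2), and the log2 change was 2.04 ± 0.51 (limma adjusted p = 0.14). The authors' deposited table gave 2.09 with an adjusted p of 0.034. Its share of reads was 260.4 to 298 RPM in the border zone and 152 to 215 RPM in remote muscle, again with no overlap.

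Tln2 encodes talin-2, the talin that predominates at costameres of mature heart muscle (ENSMUSG00000052698, chr9:67217087-67559703, minus strand). Its values were 10131, 3981 and 2524 normalized reads in the border zone of mice 32, 34 and 40, and 1939 and 843 in remote mice 40 and 43. Mouse 32 stood far above the rest, and the border zone of mouse 40 was only 1.30-fold above its remote muscle. The log2 change was 1.87 ± 0.62 (limma adjusted p = 0.182), and the authors' deposited table gave 1.99 with an adjusted p of 0.0995. As a share of reads Tln2 overlapped between regions (border zone 154 to 256 RPM, remote 102 to 191 RPM). Tln1 exceeded Tln2 by 1.07, 1.69 and 1.73 times in border zone mice 32, 34 and 40 and by 1.12 and 1.49 times in remote mice 40 and 43. The balance of the talins overlapped between regions, with a difference of 0.18 in the log2 ratio (exact permutation test, two-sided, p = 0.6), and it was -0.03 without remote mouse 40 and -0.26 with GC and abundance trends removed.

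Vcl encodes vinculin (ENSMUSG00000021823, chr14:20929398-21033676, plus strand). It had 2762, 1759.6 and 2618 normalized reads in the border zone of mice 32, 34 and 40, and 1502 and 1251 in remote mice 40 and 43. The groups were apart but close, with means of 2379.9 ± 542 (SD, n = 3) and 1377 ± 177 (SD, n = 2). The log2 change was 0.77 ± 0.45 (limma adjusted p = 0.384), and it was 0.80 in mouse 40 alone. It was -0.66 with total-count scaling and near 0 (-0.0029) after quantile normalization. As a share of reads the groups overlapped (border zone 68.0 to 179 RPM, remote 148 to 151 RPM). In the annotation, 25.5% of the exon bases of Vcl overlap Ap3m1 on the other strand, and whether the counting used strand is not given in the sources used here. Ap3m1 itself averaged 79.1 normalized reads in the border zone and 259.7 in remote muscle, far below Vcl.

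**Figure D2:**
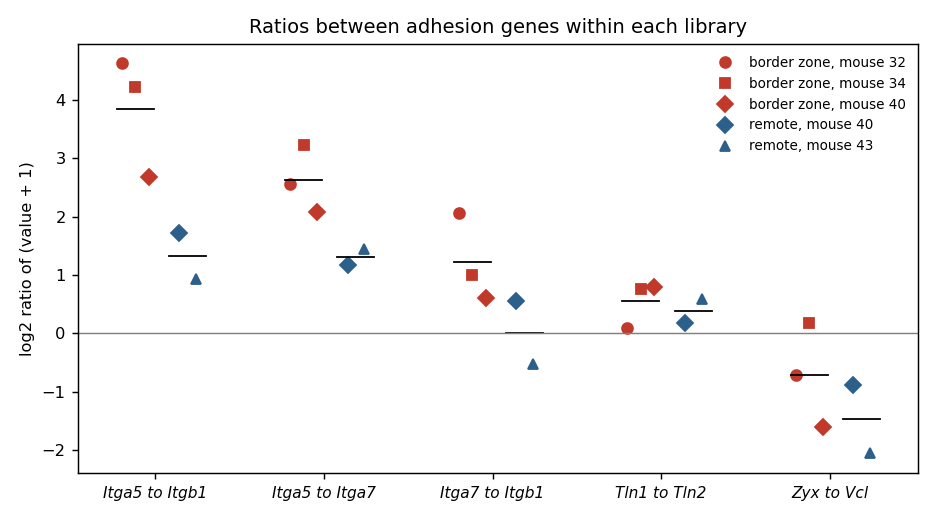
Log2 ratio of (value + 1) between pairs of adhesion genes within each library, with red for border zone, blue for remote, symbols by mouse and black lines for group means. The 3 border zone libraries lie above both remote ones for Itga5 to Itgb1, Itga5 to Itga7 and Itga7 to Itgb1, and overlap them for Tln1 to Tln2 and Zyx to Vcl.

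Vinculin, zyxin and talin-1 are known targets of serum response factor, which binds the CArG box, so the upstream sequences were searched for it, for an AP-1 site (TGANTCA) and for a TEAD site (GGAATG), on both strands. RefSeq promoters (GRCm38.p6, 250 bases before the start) were matched for 6 of the 9 genes, Itga5, Itgb1, Tln1, Vcl, Zyx and Ilk, and all 250 bases were searched in each. Itga7, Tln2 and Parva were not among them. The windows of Tln1, Zyx and Ilk overlap annotated exons and are not printed. The CArG box was found in Vcl, 227 bases before the start, and in 1.47% of all 32851 windows. The AP-1 site was found in Zyx, 121 bases before the RefSeq start and inside the gene as GENCODE places it, and in 6.75% of all windows, and the TEAD site in Itgb1 and Vcl and in 12.6% of all windows. None of these motifs overlapped another. The sequences printed are those of Itga5, which had the largest change of the 8 tested genes, Itgb1, which had the smallest, and Vcl, which holds the CArG box. They are written 5′ to 3′ on the strand of the gene, from chr15:103366792-103367041 (minus), chr8:128685404-128685653 (plus) and chr14:20929148-20929397 (plus), with matched motifs in capitals (the first in Vcl is the CArG box, the others are TEAD sites).
Itga5: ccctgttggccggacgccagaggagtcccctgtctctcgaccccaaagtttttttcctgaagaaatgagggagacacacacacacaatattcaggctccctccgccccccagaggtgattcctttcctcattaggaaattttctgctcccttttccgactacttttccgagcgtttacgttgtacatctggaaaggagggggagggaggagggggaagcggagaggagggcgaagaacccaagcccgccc
Itgb1: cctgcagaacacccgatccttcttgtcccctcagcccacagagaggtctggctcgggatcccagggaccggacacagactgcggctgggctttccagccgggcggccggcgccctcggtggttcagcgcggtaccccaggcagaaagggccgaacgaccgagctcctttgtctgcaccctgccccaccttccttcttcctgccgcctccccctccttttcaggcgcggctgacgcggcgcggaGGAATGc
Vcl: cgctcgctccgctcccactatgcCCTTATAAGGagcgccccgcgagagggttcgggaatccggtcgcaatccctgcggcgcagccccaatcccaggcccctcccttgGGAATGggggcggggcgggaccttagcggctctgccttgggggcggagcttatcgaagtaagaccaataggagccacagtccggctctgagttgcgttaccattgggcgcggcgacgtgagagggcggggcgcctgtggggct

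Zyx encodes zyxin, a LIM protein that moves to strained actin fibres and recruits actin assembly factors (ENSMUSG00000029860, chr6:42349630-42360213, plus strand). It had 1675, 1985 and 863 normalized reads in the border zone of mice 32, 34 and 40, and 810.0 and 299.7 in remote mice 40 and 43. Border zone mouse 40 was only 1.07-fold above the remote library of the same animal. The log2 change was 1.53 ± 0.58 (limma adjusted p = 0.215), and the authors' deposited table gave 1.44 with an adjusted p of 0.21. As a share of reads the groups overlapped (border zone 42.3 to 76.7 RPM, remote 36.2 to 79.8 RPM).

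Parva encodes alpha-parvin, the actin-binding arm of the ILK complex (ENSMUSG00000030770, chr7:112427505-112591692, plus strand). Its values were 559, 783 and 408 normalized reads in the border zone of mice 32, 34 and 40, and 491 and 232 in remote mice 40 and 43. The groups overlapped, and in mouse 40 the border zone was at 0.831 times the remote value. The log2 change was 0.74 ± 0.57 (limma adjusted p = 0.501), -0.27 in mouse 40 alone and -0.69 with total-count scaling.

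Ilk encodes integrin-linked kinase, a pseudokinase that holds parvin at the beta1 tail (ENSMUSG00000030890, chr7:105736592-105742925, plus strand). It had 1, 17 and 0 recovered reads in border zone mice 32, 34 and 40, and 0 in each remote library, so no fold is given. In the annotation 89.7% of its exon bases overlap Rrp8 or Taf10 on the other strand. Those neighbours averaged 44.9 (Rrp8) and 47.0 (Taf10) normalized reads in the border zone, and 37.5 and 84.1 in remote muscle. How much of the near absence of Ilk reads comes from this overlap was not tested.

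Divided by the authors' longest transcript length in kilobases, Itga5 had the highest level of the 9 genes in every library. In the border zone it stood at 2445 ± 1344 (SD, n = 3) normalized reads per kilobase, followed by Tln1 at 872 ± 391, Zyx at 473 ± 182, Tln2 at 457 ± 333, Vcl at 455 ± 104, Itga7 at 430.1 ± 247, Itgb1 at 178 ± 38.3 and Parva at 99.4 ± 32.1. Zyx, Tln2, Vcl and Itga7 did not differ from each other beyond their spread. In remote muscle the level per kilobase was 388 ± 138 (SD, n = 2) for Itga5, 263 ± 33.9 for Vcl, 205 ± 77.5 for Tln1, 176 ± 85.0 for Itga7, 174 ± 113 for Zyx, 173 ± 4.45 for Itgb1, 115 ± 63.8 for Tln2 and 61.6 ± 31.1 for Parva. Vcl thus ranked above Tln1 in both remote libraries and below it in every border zone library. Nuclear RNA holds introns, and whether intron reads were counted is not given in the sources used here, so levels per transcript length compare genes only roughly.

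Adding the 9 genes, the border zone libraries of mice 32, 34 and 40 held 46506, 26715 and 18153 normalized reads, and the remote libraries of mice 40 and 43 held 10646 and 6296. As a share of all reads the same sums were 1173, 1032 and 1239 RPM in the border zone and 1049 and 761 RPM in remote muscle. The separation in normalized reads was thus lost on the scale of read shares, where border zone mouse 34 lay below remote mouse 40. In bulk libraries such as these, more nuclei of a kind and more RNA per nucleus cannot be told apart.

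The direction of the smaller changes depended on scaling, while Itga5 and Tln1 stayed higher under each scaling run. With total-count scaling the median of all tested genes was -1.59, and the log2 changes were 1.11 for Itga5, 0.61 for Tln1, 0.44 for Tln2, 0.10 for Zyx and -1.40 for Itgb1. After quantile normalization Itga5 stood at 1.55 and Tln1 at 1.08, and Itgb1 at -0.43. Across all tested genes the change also moved with base composition. From the quintile of lowest GC content to that of highest, the median log2 change went from -0.94 to 0.67. Itga5, Itga7, Tln1 and Zyx, with GC contents of 57.3%, 57.8%, 57.0% and 56.6% in the longest transcript, lie in the quintile of highest GC content. Itgb1 (44.8%) and Parva (47.0%) lie in the quintile next to the lowest. With trends of GC content and abundance removed from each library, the log2 change was 0.82 ± 0.35 for Itga5, 0.67 ± 0.44 for Tln2, 0.67 ± 0.56 for Parva, 0.40 ± 0.35 for Tln1 and -0.07 ± 0.47 for Itga7. The median of the 8 genes was then 0.39 against -0.10 for all tested genes.

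**Figure D3:**
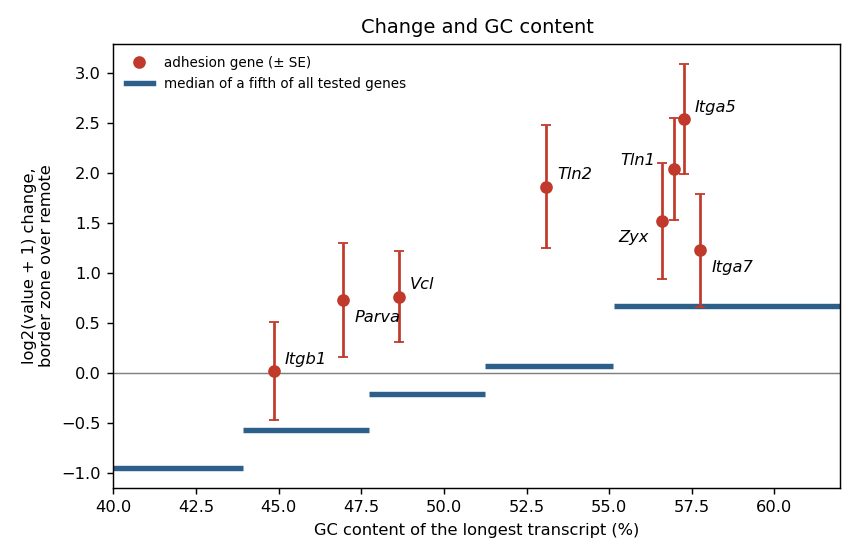
Log2(value + 1) change of the 8 tested adhesion genes (red, ± SE) against the GC content of the longest transcript, with blue bars for the median change of each quintile of all tested genes (the outermost bars run past the axis, which covers 40% to 62%). The adhesion genes lie on or above the blue bars, and the bars climb from -0.94 to 0.67.

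Single libraries moved the values as well. Without border zone mouse 40, limma called Itga5 higher (log2 2.97, adjusted p = 0.045, where adjusted p ran from 0.0083 to 0.973 over the alternatives), with 1.37% of all tested genes called higher and 0.2% lower. In the libraries of mice 40 and 43 alone, without border zone mice 32 and 34, the log2 changes were 1.68 for Itga5, 1.40 for Tln1, 0.98 for Tln2, 0.93 for Vcl and 0.92 for Itga7. Without remote mouse 43, the log2 change was 0.81 for Zyx and 0.20 for Parva.

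**Figure D4:**
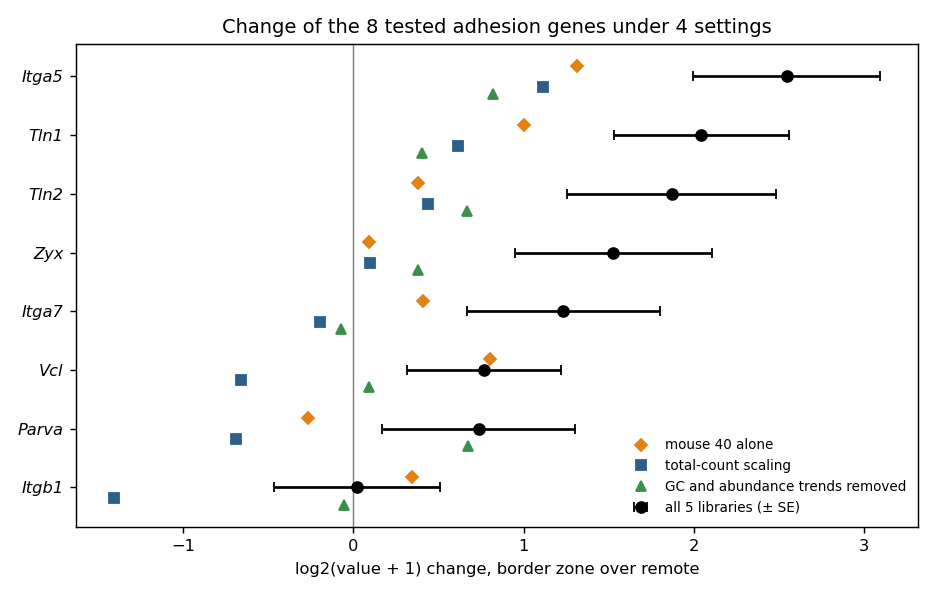
Log2(value + 1) change of the 8 tested genes with all 5 libraries (black, ± SE), in mouse 40 alone (orange), with total-count scaling (blue) and with GC and abundance trends removed (green). Itga5, Tln1, Tln2 and Zyx stay above 0 under all 4 settings, while Itga7, Vcl, Parva and Itgb1 fall below 0 under at least 1.

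Among the adhesion genes themselves, the profiles of Itga5 and Tln1 over the 5 libraries were the nearest, at a root mean square distance of 0.27 between gene-centred log2(value + 1) values. Itga5 and Itgb1 were the farthest apart, at 1.42. Among 6060 other protein-coding genes with a mean of at least 100, the nearest to Itga5 were Tiam2 (0.07), Zfp697 (0.10) and Fbrsl1 (0.12). The nearest to Tln1 were Rcan1 (0.09), Rab11fip3 (0.10) and Prdm16 (0.10), and the nearest to Itgb1 were Recql5 (0.03), Kif1b (0.05) and Kidins220 (0.05). With 5 libraries these distances describe the profiles only.

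Beyond the 9 genes, 94 other genes of cell-matrix adhesion were listed by role, of which 85 were tested. Of the tested genes 57 (67.1%) had positive and 28 negative log2 changes, where 45.0% of all tested genes were positive, with a median of 0.81 against -0.21 for all tested genes, and of -0.02 against -0.10 once GC and abundance trends were removed. By limma 0 of the 85 passed, and 25 were higher and 4 lower at an unadjusted p under 0.05, where the shares over all tested genes were 10.2% and 7.87%. The authors' deposited table called 9 of 87 higher and 0 lower, against 3.46% and 1.98% of all genes with an adjusted p. For 38 of the 85 every border zone library lay above both remote ones, and for 9 every one lay below, that is 44.7% and 10.6% against 18.9% and 20.3% of all tested genes. The list is rich in abundant genes, since 76 of the 85 had a mean of at least 50. Among all genes with a mean of at least 100, 4132 of 7083 were positive and the first order held for 30.4%. In that set limma gave 1369 as higher and 515 as lower at an unadjusted p under 0.05. The authors' deposited table called 453 of 7077 of them higher and 75 lower. In the most abundant quintile it held for 48.6%. The 9 genes called in the authors' deposited table had positive log2 changes in mouse 40 alone, with total-count scaling and after quantile normalization. They were also positive with GC and abundance trends removed, but only from 0.15 for Hspg2 to 1.69 for Evl. All these settings reuse libraries in which the 9 were called as higher, so the shared sign is not independent evidence.

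Matrix ligands gave 3 of these calls. Fn1, fibronectin and thus the ligand of the alpha5 integrin, had 1619.8, 2097 and 1256 normalized reads in the border zone of mice 32, 34 and 40, and 579 and 292 in remote mice 40 and 43. In normalized reads, receptor chain and ligand were therefore both higher in all 3 border zone libraries. As a share of reads this held for Itga5 but not for Fn1, where border zone mouse 32 lay below remote mouse 40. The log2 change of Fn1 was 1.12 in mouse 40 alone and 0.55 with total-count scaling. The authors' deposited table gave log2 1.93 (adjusted p = 0.042) for Fn1, 2.75 (adjusted p = 0.014) for Hspg2, the basement membrane proteoglycan perlecan, and 2.72 (adjusted p = 0.027) for the collagen IV chain Col4a1. For Hspg2, with a GC content of 60.9%, the log2 change was 1.02 in mouse 40 alone and 0.15 with GC and abundance trends removed. These trends left 1.10 for Fn1 and 0.87 for Col4a1. Of the 6 laminin chains tested, all described here after their values were seen, 3 (Lama5, Lamb2 and Lamc1) had every border zone library above both remote ones, and Lama2, Lama4 and Lamb1 overlapped. Lama2, a ligand chain of the alpha7 integrin, gave 0.29 ± 0.46 (limma adjusted p = 0.757), Lama5 1.06 ± 0.44 (limma adjusted p = 0.242) and Lamb1 -1.94 ± 1.03 (limma adjusted p = 0.335). With GC and abundance trends removed these became -0.65, -0.96 and -1.82.

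Other integrin subunits had no call. Of 9 alpha chains tested, 5 were positive and 4 negative, and of 4 beta chains 3 were positive. Itga9 (log2 1.05 ± 0.52, limma adjusted p = 0.303) and Itga3 (1.55 ± 0.67, limma adjusted p = 0.253) were the most abundant alpha chains. Itgb6 had 353, 289 and 359 normalized reads in the border zone of mice 32, 34 and 40 and 654 and 1188 in remote mice 40 and 43. It lay lower in every border zone library (log2 -1.41 ± 0.52, limma adjusted p = 0.212). Itgb5 gave 0.55 ± 0.62.

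Among integrin activators none was called, and 3 of 6 tested were positive. Fermt2, the kindlin that helps talin switch integrins on, stood at 0.46 ± 0.46 on the log2 scale (limma adjusted p = 0.608), and the small GTPase gene Rap1a gave -1.61 ± 1.34 (limma adjusted p = 0.533). Among genes listed as integrin inhibitors 2 of 5 were positive. Kank1, whose product binds talin, had 9270.0, 6981 and 4413 normalized reads in the border zone of mice 32, 34 and 40, and 1860.1 and 1179 in remote mice 40 and 43. The authors' deposited table has it as risen, by 2.18 on the log2 scale (adjusted p = 0.017), and it stood 1.25 higher on the log2 scale in mouse 40 alone.

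Of the 6 partners of the ILK complex 2 were positive and 0 called, with a median of -0.32. The 2 positive genes were also the 2 of highest mean. Rsu1 gave 0.50 ± 0.48 (limma adjusted p = 0.588) and Lims2, a PINCH adaptor, 0.88 ± 0.51 (limma adjusted p = 0.377). The other 4 were negative, and 2 of them are named here after their values were seen. Lims1, the other PINCH gene, gave -1.82 ± 0.72 (limma adjusted p = 0.228). Itgb1bp2 gave -0.60 ± 0.51 (limma adjusted p = 0.542) and lay below remote in every border zone library. Kinases and scaffolds had a median of 1.49, with 12 of 14 positive. Paxillin, Pxn, a scaffold of focal adhesions, had 16312, 8687 and 4227 normalized reads in the border zone of mice 32, 34 and 40 and 2265 and 2042 in remote mice 40 and 43. The authors' deposited table gave it log2 2.18 with an adjusted p of 0.042. Its log2 change was 0.90 in mouse 40 alone, 0.54 with total-count scaling and 0.20 with GC and abundance trends removed.

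Partners of vinculin and zyxin held 4 calls among 17 tested genes, of which 15 were positive, with a median of 1.09, where 3.46% of all genes were called higher and 45.0% were positive. With GC and abundance trends removed the median was 0.19, and that of the kinases and scaffolds was 0.58. Sorbs3, the vinculin-binding protein vinexin, had 6186, 4641 and 3686 normalized reads in the border zone of mice 32, 34 and 40 and 1158 and 401 in remote mice 40 and 43, and stood 1.67 higher on the log2 scale in mouse 40 alone. The authors' deposited table gave log2 2.63 (adjusted p = 0.0073) for Sorbs3, 2.62 (adjusted p = 0.02) for Enah and 2.78 (adjusted p = 0.0496) for Evl, 2 actin-elongating proteins of the Ena/VASP family, and 2.44 (adjusted p = 0.026) for Tns2, a tensin. With GC and abundance trends removed the log2 changes were 1.22 for Sorbs3, 1.20 for Enah, 1.69 for Evl and 0.33 for Tns2. In the dystrophin complex, the other membrane anchor of the costamere, 6 of 12 genes were positive and 0 were called. Dmd gave 0.79 ± 0.61 (limma adjusted p = 0.503) and Utrn, its homologue utrophin, 1.57 ± 0.53 (limma adjusted p = 0.188). With total-count scaling these became -0.64 and 0.14, and with GC and abundance trends removed -0.73 and 0.37. Of the 6 negative genes Sgca, named after its values were seen, gave -1.58 ± 0.60 (limma adjusted p = 0.215). It lay below remote in every border zone library.

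**Figure D5:**
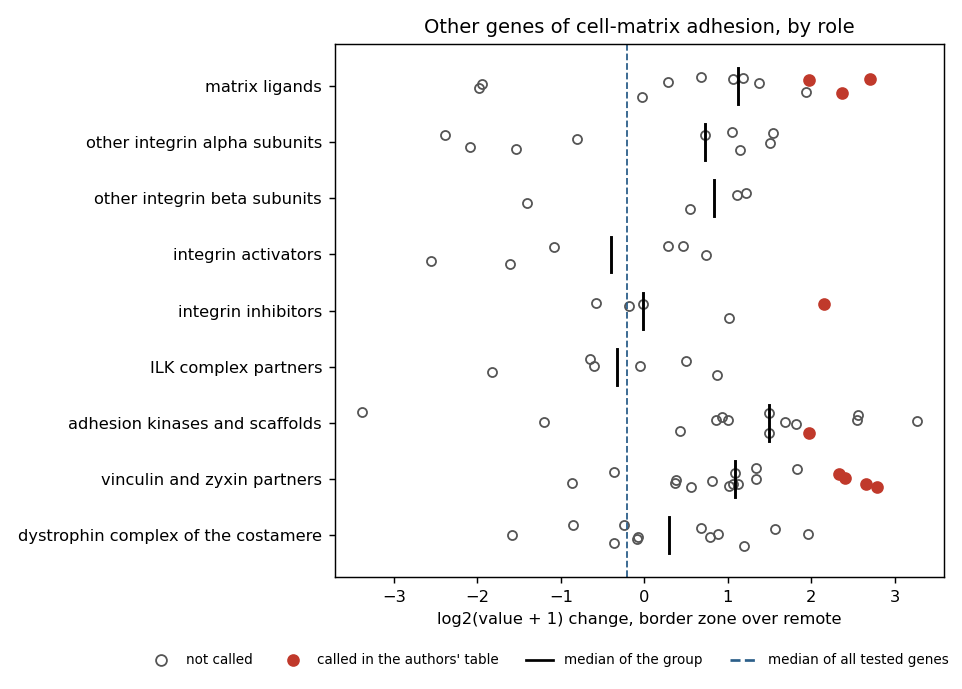
Log2(value + 1) change of the 85 other tested adhesion genes by role (1 point per gene, jittered vertically), with red for the 9 called in the authors' deposited table, black lines for role medians and a dashed line at the median of all tested genes, -0.21. All 9 red points lie to the right of 1.9.

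Several of these genes are also expressed by other cells of the heart, so marker lists were read beside them. Of the 8 cardiomyocyte markers 6 were positive, and 4 lay above remote in every border zone library, Tnnt2 the most (log2 1.79). Myh6 (1.14), Actc1 (0.06) and Myl2 (-0.10) overlapped, and Pln (-2.63) lay below. Summed fibroblast markers (9 genes, 6 of 9 positive) stood at 3452 to 5143 normalized reads in the border zone and 2012 to 2762 in remote muscle, but at 0.0118% to 0.0236% of reads against 0.0243% to 0.0272%. Lum, Tcf21 and Dpt were each at 0 in some border zone library, and Tcf21 also in remote mouse 43. Col1a1 and Col3a1 lay above remote in every border zone library (log2 1.54 and 0.38), and Dcn lay below (-2.04). Endothelial markers (9 genes) summed to 268 to 789 normalized reads in the border zone and 426 to 467 in remote muscle, and Kdr, Tek and Emcn were each at 0 in some border zone library. Macrophage and leukocyte markers (9 genes) summed to 204 to 361 and 279 to 345, with Cd14 at 0 in all libraries. The endothelial and leukocyte sums in normalized reads overlapped between regions, but their shares of reads did not. Endothelial markers took 0.000676% to 0.00337% of reads in the border zone and 0.0042% to 0.00564% in remote muscle. Leukocyte markers took 0.000516% to 0.00247% against 0.00275% to 0.00417%. Erg (log2 2.08) and Cx3cr1 (2.38) lay above remote in every border zone library, while Tie1 (-1.75), Mrc1 (-3.71) and Csf1r (-1.07) lay below. Smooth muscle and pericyte markers (8 genes) summed to 7587 to 14599 in the border zone and 4943 to 5958 in remote muscle, but to 0.0368% to 0.0518% of reads against 0.0487% to 0.0720%. Most of the border zone sum was Cspg4, at 11243, 9375 and 5285 in border zone mice 32, 34 and 40 and 1749.9 and 299.7 in remote mice 40 and 43. Pdgfrb also lay above remote in every border zone library (log2 1.16), and Myh11 overlapped (2.23), while Rgs5 (-4.09) and Abcc9 (-1.56) lay below. Notch3 (0.54) and Acta2 (0.26) overlapped, and Kcnj8 was at 0 in 2 border zone libraries and in remote mouse 40. The part of fibroblast, endothelial, leukocyte and mural cell nuclei in the adhesion gene differences was not tested.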

How the data were processed

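Per the labels, 5 libraries of nuclear RNA were made from PCM-1 sorted nuclei. The authors deposited a signal table, reads per gene divided by 1 size factor per library. Per the submitters' processing notes, STAR, DESeq2 and mm10 were used, without versions or roles. Neither the counting tool nor the annotation is given in the sources used here. Dividing by the value of 1 read gave whole numbers, within 0.01, for 100% of nonzero values, so reads were recovered. Size factors were 0.631 to 1.37. The authors' deposited comparison table gives log2 changes, p-values and adjusted p-values, quoted as theirs. Total reads and the spread between libraries set the precision, and amplified reads are not independent molecules.

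Regions were compared with limma 3.58.1 in R 4.3.3, with region as the only term, on log2(value + 1) and with the prior variance allowed to follow the mean, two-sided, with Benjamini-Hochberg adjustment over the 14989 genes with a mean of at least 10. Alternatives were DESeq2 1.42.0 and the quasi-likelihood test of edgeR 4.0.16 with TMM factors, both on recovered reads, other pseudocounts, filters and scalings, removal of loess trends of GC content (known for 99.1% of tested genes) and abundance, and leaving out libraries. On recovered reads DESeq2 called 574 genes higher and 328 lower, as many as the authors' deposited table. The limma step was tested on simulated data. Coordinates and GC content came from GENCODE M21 (the assembly of mm10). The share of genes in which all border zone libraries lay highest was also taken over genes with a mean of at least 100, an alternative chosen after seeing the data. Counts of genes called and positive were also taken over that set.

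The adhesion genes and all lists were chosen with earlier results of these data known. Named genes of the wider list were those called in the authors' deposited table or by limma, or, in a role without a call, the 2 of highest mean, and the nearest profiles were the 3 at the smallest distance. Tns2 was matched by Ensembl ID. The authors' group means per kilobase were not used.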

Additional observations from a re-analysis of the deposited data

How the results depend on the processing

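No paired analysis was possible because the regions share only mouse 40. Relative to all tested genes, the median log2 change of the 8 adhesion genes was 1.59. It was 0.89 after quantile normalization, 0.49 with GC and abundance trends removed, 0.90 with mice 40 and 43 only, 0.37 within mouse 40, and 0.96 to 2.21 without 1 library. All 8 belong to the most abundant quintile of tested genes. Within mouse 40 the median of that quintile was 0.35, close to the 0.39 of the 8 genes. DESeq2 on recovered reads called 2 of the 9 genes (Itga5 and Tln1) and 9 of the wider list. Without 1 library limma called 0 to 1 and 0 to 3, and the calls came without border zone mouse 40 (Itga5, and Enah, Kank1 and Tns2). Every other alternative called 0 of either. With total-count scaling the log2 change was -0.20 for Itga7, -1.40 for Itgb1, -0.66 for Vcl and -0.69 for Parva. It was -0.43 for Itgb1 and -0.0029 for Vcl after quantile normalization, -0.074 for Itga7 and -0.053 for Itgb1 with GC and abundance trends removed, -0.028 for Itgb1 by edgeR and -0.27 for Parva within mouse 40. Without 1 library Itgb1 ran from -0.13 to 0.19, and the log2 ratio of Tln1 to Tln2 from -0.029 to 0.40. The cause of these differences was not tested. Itga5, Tln1, Tln2 and Zyx kept their direction under all 16 alternatives, and Itga5 to Itga7 under all 9. Changes of the filter leave a log2 change as it is, so those alternatives could not reverse a direction. Zyx was near 0 within mouse 40 (0.09) and with total-count scaling (0.10). With a lone library in a region, that library is assumed to vary like the others. Ilk, with at most 17 reads, was too shallow to compare.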

Other observations

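Of the wider adhesion list, 15 tested genes lie in the quintile of lowest GC content. Of these 7 had positive log2 changes (46.7%), against 27.7% of all tested genes in that quintile, 3 lay higher in every border zone library (Sorbs2, Nexn and Lpp, 20% against 8.92%), and 3 lay lower in every one (Itgav, Rap1b and Crk, 20% against 34.4%). Sorbs2, Nexn and Lpp (means of 51229, 9833 and 3819) belong to the most abundant quintile, where 48.6% of genes lay higher in every border zone library. Their log2 changes were -1.01, 0.32 and 0.53 with GC and abundance trends removed. With total-count scaling they were -1.06, -0.31 and -0.34. The genes below are named after their values were seen. Nexn, an actin-binding Z-disc protein, gave 1.12 ± 0.51 (limma adjusted p = 0.273) and Lpp, a zyxin relative, 1.09 ± 0.47 (limma adjusted p = 0.252). Itgav, the alphav integrin chain, had 4.75, 60.3 and 59.5 normalized reads in the border zone of mice 32, 34 and 40 and 107 and 192 in remote mice 40 and 43, a log2 change of -2.38 ± 1.15 (limma adjusted p = 0.298) at a GC content of 43.5%. Crk, an adaptor downstream of paxillin, had 4.75, 35.7 and 123 against 217 and 434, a log2 change of -3.38 ± 1.16 (limma adjusted p = 0.191) at a GC content of 43.8%. With GC and abundance trends removed these changes were -1.48 and -2.60, and within mouse 40 they were -0.84 and -0.82. The value of 4.75 for both genes in border zone mouse 32 is near the floor. That library held the fewest genes at equal depth (15843). Both genes were thus lower in 3 of 3 border zone libraries. The kinase gene Src went the other way in 2 of 3 border zone libraries, with 138 and 212 normalized reads in mice 32 and 34, 5.48 in mouse 40, and 13.6 and 1.46 in remote mice 40 and 43.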
